A study of Saccharomyces cerevisiae with 24 samples.

Results

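The BY alleles of the yeast Saccharomyces cerevisiae were followed from a haploid BY cell into a diploid hybrid with the RM strain. BY4741 is a laboratory haploid derived from the reference strain S288C, and RM11-1 descends from a vineyard isolate. All 24 libraries of the series entered, each through the reads assigned to its BY alleles: 12 hybrid libraries and 12 co-culture libraries. The hybrid WL201 is an a/alpha diploid of BY4741 and RM11-1alpha and was grown alone. In co-culture, haploid BY4741 and RM11-1a cells, labelled as mating type a, shared a flask. Each group came from 4 technical replicate cultures that were started at an OD600 of 0.1 and harvested at an OD600 of 1.0, at 30 °C and 250 revolutions per minute. The medium is not given, and neither is the culture behind each library. The question was how the same BY alleles change between these 2 settings, so a change is the log2 of hybrid over co-culture of the BY level, given as RPM: a gene's BY reads per 1000000 BY reads of the library. RM levels are scaled likewise to the RM reads.

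Several things change together between the groups: the number of chromosome sets, the mating type, the RM genome in the same nucleus, and the RM cells in the same flask. As background, BY4741 also carries deletions of HIS3, LEU2, MET17 and URA3, of which only MET17 was among the gene pairs counted. The parts of all these factors cannot be told apart. MET17, a sulfhydrylase of sulfur amino acid synthesis, had 0 BY reads in either group, with 149 RM reads in the hybrid and 206 in co-culture. LYS2, an enzyme of lysine synthesis, had 695 BY reads in the hybrid and 586 in co-culture, but 2 RM reads in the hybrid against 590 in co-culture. In such bulk samples, fewer cells of a type and less RNA per cell cannot be told apart.

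Each hybrid library held 83068 to 116815 BY reads and each co-culture library 90374 to 102332, with a median of 91 and 78 BY reads per gene over the 12 libraries of a group. Of 4442 gene pairs, 2618 reached a mean of 5 BY reads per library over all 24 libraries and were tested, and 1824 did not. Libraries of a group whose counts agree within sampling noise were summed, which left 6 summed replicates in each group. These outnumber the 4 cultures, so some share a culture. The p-values measure only how libraries vary, which was little beyond sampling noise, and not how independent cultures vary. Between pairs of libraries the median chi-square per degree of freedom was 1.08 in the hybrid and 1.06 in co-culture, on reads of both alleles. Hybrid libraries 9 and 1 lay farthest from the others of their group, with chi-square values per degree of freedom against their fellows of 1.28 and 1.20 at the median, and 1.03 to 1.11 for every other library. They are hybrid summed replicates 5 and 1. Without summed replicate 5, 801 genes rose and 614 fell, and without summed replicate 1, 788 rose and 615 fell. Reads were counted on the sites where the strains differ, per the file headers, so levels are compared between groups and not between genes.

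As background, yeast mating type decides which cells make and sense pheromone: a cells express a-specific genes, both haploid types express a pheromone response pathway, and in an a/alpha diploid alpha2 represses the first set and a1 with alpha2 the second. Ribosome assembly genes form a large co-regulated group whose expression follows growth. The heme-responsive activator Hap1 drives genes of respiration and sterol synthesis, and the BY allele of HAP1 carries a transposon insertion that weakens it.

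Many tested BY alleles changed, most by small amounts. With edgeR's quasi-likelihood test and Benjamini-Hochberg adjustment over all tested genes, 1406 of 2618 were called at an adjusted p below 0.05 (53.7%). Of these, 794 were higher in the hybrid (30.3% of those tested) and 612 were lower (23.4%). The median size of a called change was 0.61 on the log2 scale. Only 257 genes were called and changed more than 2-fold (9.82%), 150 up and 107 down. The 2 groups of summed replicates did not overlap for 669 genes (25.6%), 667 of them called. The median change of all tested genes was 0.07. With a TMM scaling 680 were higher (26%) and 714 lower (27.3%), and DESeq2 called 561 higher (21.4%) and 593 lower (22.7%). Of the RM alleles of 2516 genes, scaled to the RM total of each library, 881 were higher (35%) and 487 lower (19.4%).

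The largest falls were the genes that mark a haploid cell of mating type a. MFA1, which encodes the precursor of the pheromone a-factor, had 0 BY reads in all 12 hybrid libraries and 388 in co-culture. With 3 reads over the hybrid group as the limit that a count of 0 allows, MFA1 was at least 143-fold lower. BY reads of STE2, the receptor for the pheromone of alpha cells, ran from 28.9 to 62.1 RPM in the hybrid (median 56.5) and from 5380 to 5853 in co-culture (median 5700). Its log2 change was −6.66 ± 0.09, with an edgeR adjusted p of 9.45e-73. The ± value is an SE approximated from the F value of the test, too narrow where a group has few reads. STE6, the transporter that exports a-factor, lay between 18.2 and 86.8 RPM in the hybrid and between 2085 and 2363 in co-culture, a change of −4.97 ± 0.10 (edgeR adjusted p = 1.8e-57). BAR1, a secreted protease that degrades the alpha pheromone, had 6 BY reads in the hybrid and 819 in co-culture, a change of −7.06 ± 0.21 (edgeR adjusted p = 6.87e-46). At 6 reads that ± value is smaller than counting error alone. No hybrid replicate came near a co-culture replicate for any of these genes, while the groups did not overlap for 25.6% of all tested genes. The median over these 4 tested genes was −6.86, also with MFA1 at its limit of −7.16, but co-culture reads alone carried them past the read minimum. A further a-specific gene, ASG7, had 5 and 39 BY reads and was not tested.

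The falls of the a-specific genes give a reason to show the stretches before their start codons that hold CATGTAA, a core of the sites bound by alpha2. The sequences come from the RefSeq R64 assembly, since the files give no build or coordinates, and read 5′ to 3′ on the strand of the gene. Capitals mark CATGTAA, or TTACATG where it lies on the other strand. The windows are chrIV:1384941-1384997 (plus strand) for MFA1, chrVI:82330-82382 (plus strand) for STE2, chrXI:46476-46532 (minus strand) for STE6 and chrIX:322092-322132 (plus strand) for BAR1.
MFA1: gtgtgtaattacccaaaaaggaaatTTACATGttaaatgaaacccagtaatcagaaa
STE2: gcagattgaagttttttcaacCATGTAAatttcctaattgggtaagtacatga
STE6: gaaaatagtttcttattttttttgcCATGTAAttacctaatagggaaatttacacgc
BAR1: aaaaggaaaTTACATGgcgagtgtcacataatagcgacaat

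These letters stood on either strand within 250 bases before the start codon of 4 of the 4 tested a-specific genes. The same search found them before 2.99% of the 2607 tested genes with an R64 window, 1.77% of the called rises and 3.12% of the called falls. A match describes the letters and shows no binding.

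The genes that both haploid types express and diploids repress were lower too. GPA1, the alpha subunit of the G protein that couples the pheromone receptors, stood at 0 to 11.6 BY RPM in the hybrid (median 9.72) against 188 to 282 in co-culture (median 205), a change of −4.51 ± 0.26 (edgeR adjusted p = 8.66e-27). FUS3, the kinase at the end of the pheromone cascade, had 1 BY read in the hybrid and 125 in co-culture, a ratio of 138 with a counting interval of 24.3 to 5497. FAR1, a cell cycle inhibitor that acts when pheromone is present, fell from a median of 952 RPM (917 to 1058) to 88.2 (58.7 to 98.2), or −3.45 ± 0.11 (edgeR adjusted p = 3.56e-44). SST2, which turns the G protein signal off, went from a median of 489 to 61.1 RPM (edgeR adjusted p = 9.22e-33). A pair of DNA repair genes moved with them. NEJ1, needed for end joining, changed by −3.15 ± 0.23 and RDH54, a recombination ATPase, by −2.49 ± 0.15. AMN1, which opposes exit from mitosis and daughter cell separation, changed by −1.84 ± 0.10 (edgeR adjusted p = 1.04e-27), the smallest fall of the 7 tested members, whose median was −3.15. The groups did not overlap in these 7 genes, nor did they in 25.6% of all tested genes. Here too co-culture reads carried several past the read minimum. The untested members STE18, AXL1 and RME1 had 1, 1 and 2 BY reads in the hybrid and 30, 48 and 79 in co-culture.

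**Figure D1:**
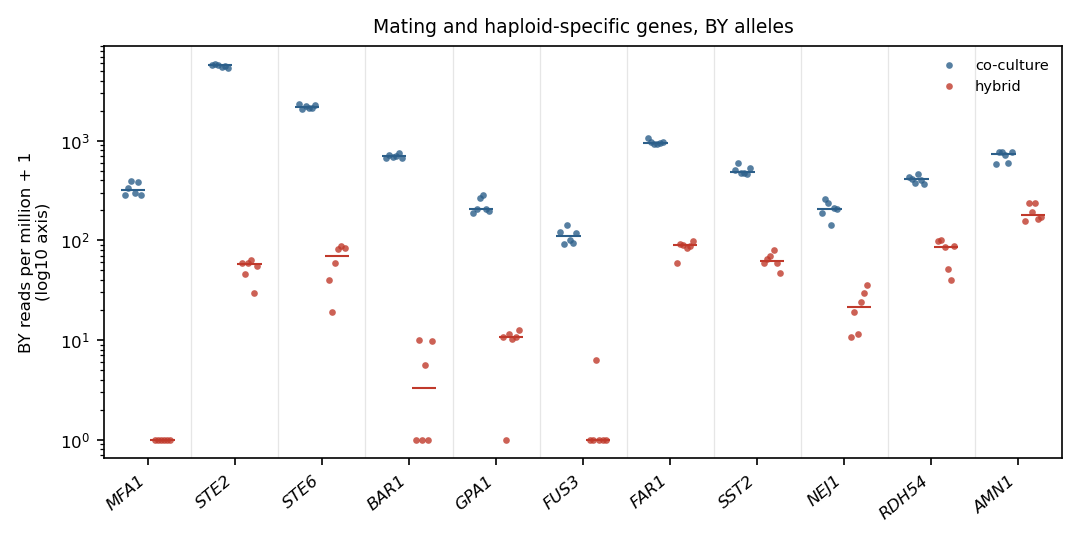
BY RPM plus 1, on a log10 axis, of the a-specific and haploid-specific genes in the 6 summed replicates of the co-culture (blue) and of the hybrid (red); short lines are medians. In each gene the hybrid points lie below the co-culture points, from MFA1 with 0 reads in the hybrid to AMN1 with a median of 180 against 741.

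Markers of other cell states were scarce. The alpha-specific STE3 and SAG1 had 0 and 13 BY reads in the hybrid and 2 and 5 in co-culture. The meiotic genes IME1, IME2 and SPO11 had 44, 9 and 10 BY reads in the hybrid and 38, 18 and 24 in co-culture, all below the read minimum. IME4, a methyltransferase of meiotic entry named here after its values were seen, ran from 78.3 to 200 RPM in the hybrid and from 227 to 297 in co-culture, a change of −1.21 ± 0.15 (edgeR adjusted p = 2.77e-11). A non-coding gene is annotated over IME4, and without a stated strand their reads cannot be told apart. Of 7 tested members of the pheromone cascade that all cells share, 2 rose and 1 fell, beside 30.3% and 23.4% of all tested genes. The kinase gene STE7 rose by 1.00 ± 0.25, from a median of 36.4 to 75.3 RPM (edgeR adjusted p = 0.00053).

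Ribosome assembly genes made up most of the largest rises. By the rule used to name genes, the 8 largest rises were RRP36, EBP2, UTP14, CYC1, SAS10, BUD22, PXR1 and NOP53, and apart from CYC1 these act in the nucleolus on ribosomal RNA. RRP36, a factor of early 18S processing, ran from 232 to 300 BY RPM in the hybrid (median 250) and from 16.1 to 46.3 in co-culture (median 20.3), a rise of 3.37 ± 0.21 (edgeR adjusted p = 1.86e-25). EBP2, an assembly factor of the large subunit, rose by 3.11 ± 0.14, from a median of 55.4 to 491 RPM (edgeR adjusted p = 5.31e-33). UTP14, of the complex that matures the small subunit, rose by 2.95 ± 0.11, from 109 to 796 RPM (edgeR adjusted p = 2.26e-38). NOP16, a large subunit factor with too few reads for that rule but named as the largest rise of its list, went from a median of 13.3 to 160 RPM, a rise of 3.39 ± 0.26 (edgeR adjusted p = 4.72e-20). The rule takes only genes whose 2 groups do not overlap, so a gap between the groups was fixed in advance for the 8. NOP16 was not picked for it, and its lowest hybrid replicate (144 RPM) lay above its highest co-culture replicate (19.8 RPM). The groups did not overlap for 25.6% of all tested genes. Co-culture held 29 BY reads of RRP36 and 17 of NOP16, so hybrid reads carried both past the read minimum.

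As a group, 37 of 38 tested large subunit assembly genes rose and 0 fell, against 30.3% higher among all tested genes. Among small subunit assembly genes, 40 of 46 rose and 0 fell. In 4 and 8 of these genes co-culture held fewer than 60 BY reads, less than that group's part of the read minimum. The median changes of the lists were 0.79 and 0.88. The groups did not overlap for 29 and 30 of their genes, against 25.6% of all tested genes. The A share of the coding sequence moved with these changes: its median was 34.9% and 35.2% in the 2 lists against 32.5% in all tested genes, and it was 38.2% to 44.0% in the 7 assembly genes among the largest rises. With the trend on A share removed, 33 of 38 and 33 of 46 rose, with medians of 0.66 and 0.77. The RM alleles of the lists had medians of 0.76 and 0.69, and their change differed from that of the BY alleles in 3 of 38 and 6 of 45 genes tested.

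Upstream stretches are shown for the 5 members of the assembly lists with the largest rises among those holding both of 2 known motifs of the group. SAS10 and BUD22 hold the RRPE core without PAC and are not shown, and NOP53 is on neither list. PAC, searched as CGATGAG, and the core of the RRPE element, searched as AAATTTT, are in capitals, on either strand and with overlapping matches joined. Windows are from RefSeq R64 on the strand of the gene: chrV:156632-156715 (plus) for NOP16, chrXV:851936-851978 (minus) for RRP36, chrXI:125622-125666 (plus) for EBP2, chrXIII:82962-83014 (plus) for UTP14 and chrVII:1051769-1051820 (minus) for PXR1.
NOP16: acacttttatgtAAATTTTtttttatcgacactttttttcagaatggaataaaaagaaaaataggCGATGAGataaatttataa
RRP36: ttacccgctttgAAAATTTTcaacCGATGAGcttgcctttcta
EBP2: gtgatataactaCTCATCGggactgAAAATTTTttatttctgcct
UTP14: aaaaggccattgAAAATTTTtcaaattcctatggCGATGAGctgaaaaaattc
PXR1: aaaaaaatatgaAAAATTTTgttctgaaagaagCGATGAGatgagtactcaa

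Within 250 bases before the start codon, PAC stood before 27 of 38 large subunit and 30 of 46 small subunit assembly genes tested, and before 8.71% of all tested genes. It was found before 17.6% of the called rises and 3.12% of the called falls. The RRPE core stood before 37 of 38 and 44 of 46 of the assembly genes, against 26.4% of all tested genes, 40.2% of the rises and 17.6% of the falls. Both motifs stood before 56 of the 84 assembly genes and before 149 of 2607 tested genes.

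Genes of RNA polymerase I and III and of the translation machinery rose more often than they fell, and those of RNA polymerase II were not called. Of 8 tested RNA polymerase I genes 6 rose and 0 fell (median 0.46), led by the subunit gene RPA34, which went from a median of 418 to 1512 RPM (1.79 ± 0.07, edgeR adjusted p = 6.91e-37). Of 11 RNA polymerase III genes 6 rose and 1 fell (median 0.43). Among all tested genes 30.3% rose and 23.4% fell. BDP1, a subunit of its initiation factor, rose by 1.42 ± 0.15, and TFC3, a subunit of its assembly factor, fell by 1.04 on the log2 scale. Of 5 tested RNA polymerase II genes 0 rose and 0 fell by edgeR, 0 by DESeq2 and 0 at an unadjusted p below 0.05, with a median of −0.07, while 2 rose with the A-share trend removed.

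Among ribosomal protein genes, 23 of 34 tested for the large subunit rose and 0 fell (median 0.50), and 9 of 17 for the small subunit rose and 2 fell (median 0.16), or 13 and 0 with the A-share trend removed. The largest called rises were those of RPL7B, 1.20 ± 0.13, and of RPS11B, 1.21 ± 0.15, from a median of 106 to 234 RPM. Many of these genes have near-identical copies, so a split of reads between copies makes single values uncertain, and RPL7B is also overlapped by an annotated non-coding gene. ASC1, a small subunit protein, fell by 0.17 on the log2 scale but changed by 0.23 with the A-share trend removed. Mitochondrial ribosomal protein genes rose in 16 of 31 and fell in 1, but rose in 8 with DESeq2, and with the A-share trend removed 11 rose and 3 fell. In 10 of these 31 co-culture held fewer than 60 BY reads. Translation factor genes rose in 11 of 17 and fell in 1. All these counts stand beside 30.3% higher and 23.4% lower among all tested genes. FUN12, an initiation factor, rose by 1.97 ± 0.19, from a median of 52.8 to 219 RPM, while EFT2, a gene of elongation factor 2, fell by 0.44 on the log2 scale.

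**Figure D2:**
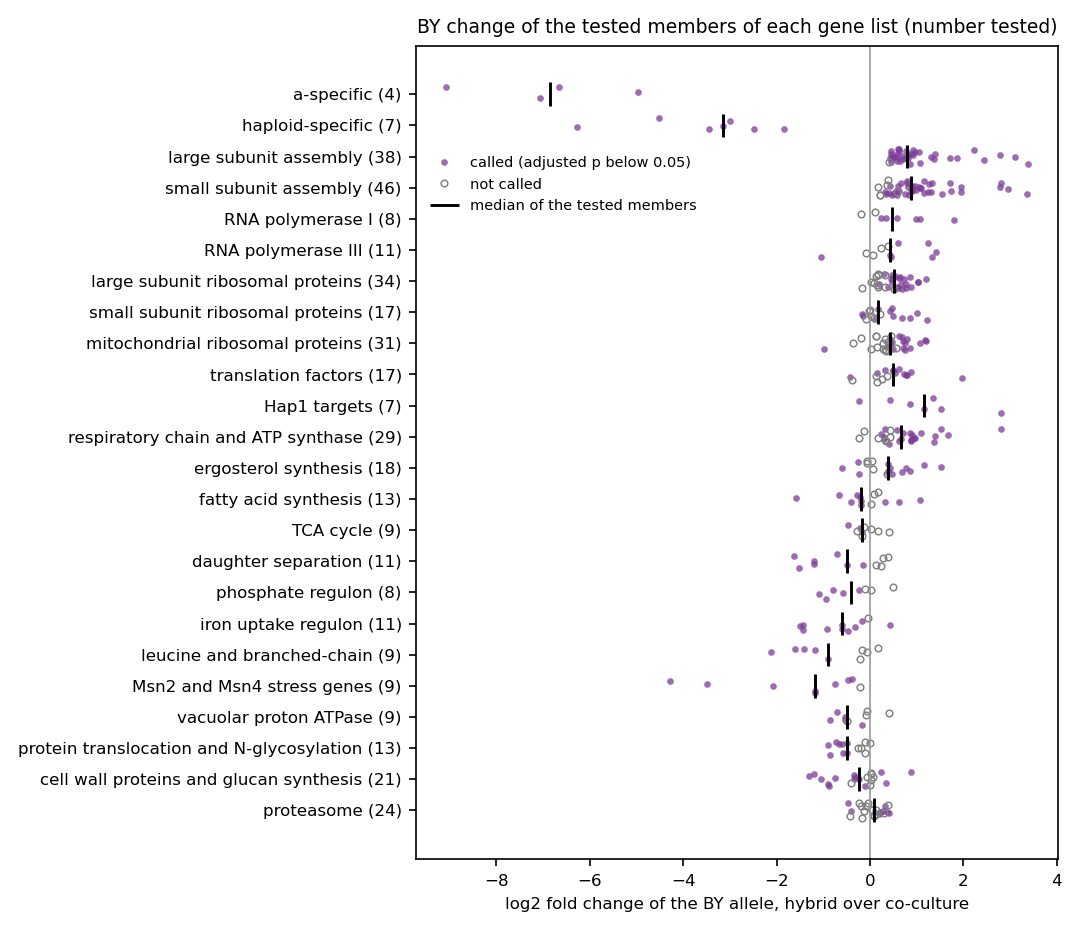
Log2 change of the BY allele, hybrid over co-culture, for the tested members of 24 gene lists; filled points were called at an adjusted p below 0.05, open points were not, and black lines are medians. The a-specific and haploid-specific genes lie far to the left, ribosome assembly and respiratory genes to the right, and iron, leucine and stress genes to the left.

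Most tested genes of respiration rose in the BY genome, while more of their RM alleles fell than rose. Of 29 tested genes for the respiratory chain and ATP synthase, 22 BY alleles rose and 0 fell, with a median of 0.66. The shares over all tested genes were 30.3% and 23.4%. With a TMM scaling 21 of the 29 rose and 1 fell. The RM alleles of 28 of these genes had a median of −0.35, with 4 higher and 18 lower. The BY change was more positive than the RM change in 26 of the 28 genes tested for a difference, against 9.06% of all 2516 genes. The rise was steepest in CYC1, which encodes cytochrome c: its BY reads ran from 436 to 531 RPM in the hybrid (median 483) and from 36.5 to 109 in co-culture (median 68.3), a rise of 2.81 ± 0.14 (edgeR adjusted p = 1.91e-30). RM reads of CYC1 rose too, from a median of 290 to 415 RPM (0.46 ± 0.10, edgeR adjusted p = 3.74e-05). The BY change exceeded the RM change by 2.35 ± 0.18 (edgeR adjusted p = 2.29e-36).

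All 8 tested genes of complex III, counted after their values were seen, rose from BY by 0.24 to 1.67, with a BY change more positive than the RM change by 0.75 to 2.03. RIP1, its iron-sulfur protein, rose from a median of 87.9 BY RPM (66.9 to 96.6) to 280 (227 to 304), while its RM reads went from a median of 365 to 289. CYT1, cytochrome c1, rose from 112 (72.1 to 128) to 315 (269 to 390), while its RM reads went from 435 to 291. The differences between BY and RM changes were 2.03 ± 0.18 and 2.02 ± 0.17 (edgeR adjusted p = 1.63e-26 and 5.16e-31). In the hybrid the BY and RM medians of these genes lay close together. The core subunit gene QCR2 and the NADH dehydrogenase genes NDE1 and NDI1, named after their values were seen, rose by 1.39, 1.09 and 1.37. SDH3 and SDH4, of succinate dehydrogenase, were not called, with changes of −0.14 and −0.24. Of 9 tested genes of the TCA cycle 0 rose and 3 fell (1 and 1 with the A-share trend removed), beside 30.3% and 23.4% of all tested genes. Falls so near that share do not set the list apart. The largest was LSC1, of succinyl-CoA ligase, at −0.47 ± 0.09.

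Known targets of Hap1 overlap with these genes. Of 7 tested, 6 rose and 1 fell, beside 30.3% and 23.4% of all tested genes. Their median was 1.15, against −0.27 for the RM alleles. Of the 7 BY changes 5 were more positive than the RM change, against 9.06% of all genes tested for it. YHB1, a flavohemoglobin that consumes nitric oxide, rose by 1.34 ± 0.05, from a median of 1925 to 4876 RPM. HMG1, of HMG-CoA reductase, rose by 1.15 ± 0.08. NCP1, which passes electrons to cytochrome P450 enzymes, fell by 0.24 on the log2 scale. Its call was lost without hybrid summed replicate 4 (edgeR adjusted p = 0.0558), and with the A-share trend removed its change was 0.08. HAP1 itself fell: its BY reads ran from 270 to 345 RPM in the hybrid (median 303) and from 435 to 521 in co-culture (median 504), a change of −0.68 ± 0.09 (edgeR adjusted p = 2.5e-09). The RM change of HAP1 was 0.10, and the difference was −0.77 ± 0.17 (edgeR adjusted p = 0.000108).

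In the ergosterol pathway 10 of 18 tested BY alleles rose and 3 fell (median 0.38), beside 30.3% and 23.4% of all tested genes. Of the RM alleles 3 rose and 9 fell (median −0.17). In 10 genes the BY change was more positive than the RM change, against 9.06% of all genes tested for it. ERG28, a scaffold of sterol demethylation, rose by 1.52 ± 0.20, from a median of 56.7 to 176 RPM. ERG11, the sterol demethylase, rose by 0.42 ± 0.07 from the BY genome and changed by −0.46 from the RM genome. HMG2, an HMG-CoA reductase gene, had the largest called fall of the list, −0.61 ± 0.12.

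OLE1, the desaturase that makes unsaturated fatty acids, crossed over between the genomes. Its BY reads ran from 3985 to 4539 RPM in the hybrid (median 4145) and from 1877 to 2142 in co-culture (median 2008), a rise of 1.07 ± 0.05 (edgeR adjusted p = 8.02e-34). Its RM reads went the other way, from a median of 4240 to 1870, and the BY change exceeded the RM change by 2.21 ± 0.05. ACS2, which makes acetyl-CoA, rose by 0.62 ± 0.07 from BY and changed by −0.70 from RM. MGA2, an activator of OLE1, fell by 0.40 from BY and changed by 0.37 from RM. Both were named after their values were seen. ELO1, an elongase, changed by −1.58 ± 0.08 from BY. In the fatty acid list as a whole 3 of 13 rose and 7 fell (median −0.19), beside 30.3% and 23.4% of all tested genes. With the A-share trend removed, 6 rose, 2 fell and the median was 0.10.

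Genes that separate mother and daughter cells fell in the BY genome and rose in the RM genome. Of 11 tested, 7 BY alleles fell and 0 rose (median −0.49), beside 23.4% and 30.3% of all tested genes. Of 10 tested RM alleles 7 rose and 0 fell (median 1.27). In 8 of 10 genes the BY change was more negative than the RM change, against 13.2% of all genes. With the A-share trend removed, 5 fell and 1 rose, with a BY median of −0.18. CTS1, the chitinase that cuts the septum, ran from 586 to 790 BY RPM in the hybrid (median 692) and from 1986 to 2193 in co-culture (median 2068), a change of −1.63 ± 0.06 (edgeR adjusted p = 2.5e-37). Its RM reads went from a median of 140 to 930 RPM. DSE1, a daughter cell wall gene, went from a median of 414 to 170 BY RPM and from 10.7 to 208 RM RPM. DSE2, a daughter-specific glucanase-like gene, went from 1066 to 474 BY RPM and from 39.7 to 517 RM RPM. The BY changes minus the RM changes were −4.42 ± 0.11 for CTS1, −5.06 ± 0.26 for DSE1 and −4.91 ± 0.16 for DSE2, the largest negative differences among the genes named by rule. For SCW11, a glucanase, the BY fall was smaller (−0.49 ± 0.11) with overlapping groups, and the difference was −2.70 ± 0.19. SUN4, a septation glucanase named after its values were seen, fell by 1.53 from BY, with an RM change of −0.03. The BY allele of AMN1, known to differ between these strains, changed by −1.84 and its RM allele by −0.77, a difference of −1.07 ± 0.16 (edgeR adjusted p = 7.2e-10).

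**Figure D3:**
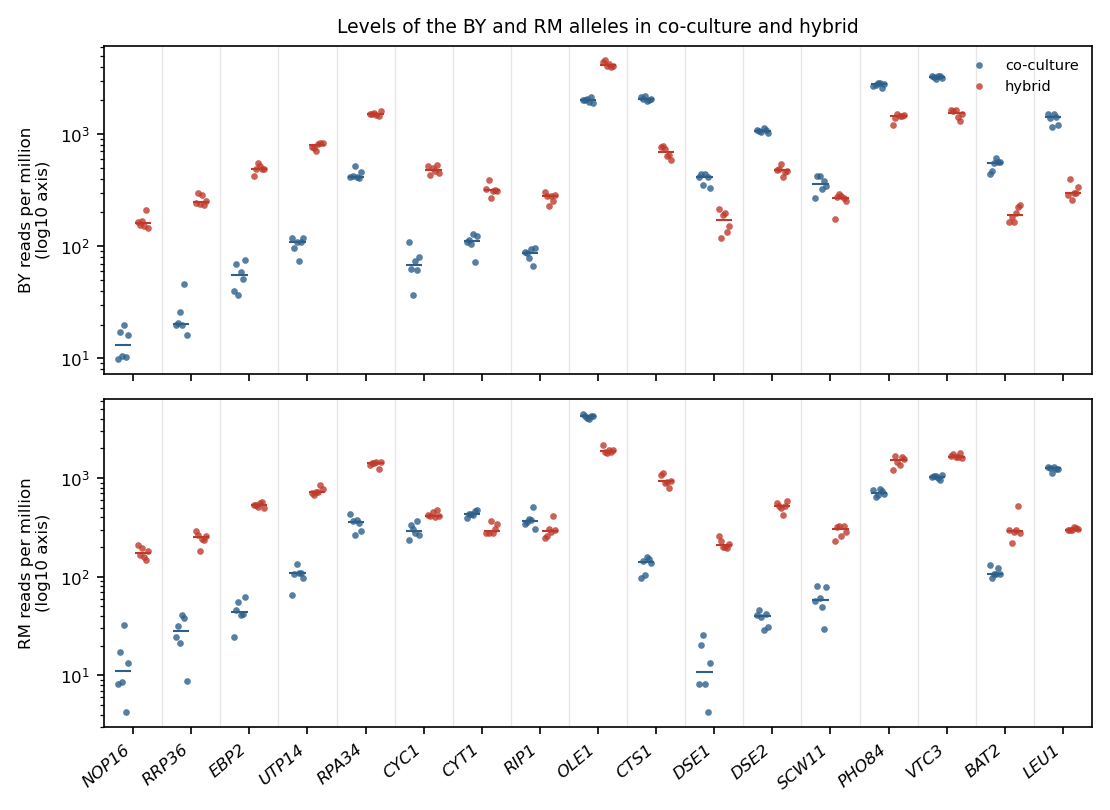
Reads RPM, on a log10 axis, of the BY alleles (upper) and RM alleles (lower) of 17 genes in the 6 summed replicates of co-culture (blue) and hybrid (red); lines are medians. NOP16 to RPA34 are higher in the hybrid for both alleles, OLE1 rises for BY and falls for RM, and CTS1, DSE1, DSE2, PHO84, VTC3 and BAT2 fall for BY and rise for RM.

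Phosphate genes split between the genomes in the same way. PHO84, the high-affinity phosphate transporter, ran from 1204 to 1508 BY RPM in the hybrid (median 1445) and from 2570 to 2831 in co-culture (median 2769), a change of −0.94 ± 0.05 (edgeR adjusted p = 8.73e-28). Its RM change was 1.05, and the difference was −1.98 ± 0.07 (edgeR adjusted p = 2.21e-166); an annotated non-coding gene overlaps PHO84. VTC3, of the polyphosphate polymerase, fell from a median of 3253 to 1553 BY RPM, while its RM reads went from 1029 to 1648. Of 8 tested genes of the regulon, 5 fell and 0 rose (median −0.40), beside 23.4% and 30.3% of all tested genes. In 5 the BY change was more negative than the RM change, against 13.2% of all genes tested for it. With the A-share trend removed 6 fell and 2 rose.

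Several leucine synthesis genes fell from both genomes. LEU1, the isomerase of the pathway, ran from 258 to 399 BY RPM in the hybrid (median 299) and from 1156 to 1526 in co-culture (median 1406), a change of −2.13 ± 0.08 (edgeR adjusted p = 2.76e-37), with an RM change of −2.01. Of 9 tested genes of branched-chain amino acid synthesis 5 BY alleles fell and 0 rose (median −0.91), beside 23.4% and 30.3% of all tested genes. Of the RM alleles 6 fell and 2 rose (median −0.30). In 4 genes the BY change was more negative than the RM change, against 13.2% of all genes tested for it. OAC1, a mitochondrial carrier of the pathway, and BAT1, the mitochondrial transaminase, changed by −1.60 and −1.18 from BY and by −1.23 and −0.98 from RM. BAT2, the cytosolic transaminase, differed: its BY reads fell from a median of 558 to 190 RPM while its RM reads rose from 107 to 291, a difference of −2.88 ± 0.17 (edgeR adjusted p = 2.88e-62). LEU2 itself was not analysed here.

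Other nutrient genes moved in smaller groups. Of 11 tested genes of iron uptake 9 fell and 1 rose (median −0.59), beside 23.4% and 30.3% of all tested genes. With the A-share trend removed 6 fell and 1 rose, with a median of −0.31. The RM median was −0.67. ENB1, a siderophore transporter, went from a median of 546 to 193 BY RPM (−1.51 ± 0.10, edgeR adjusted p = 1.17e-22). FET3, the oxidase of high-affinity iron uptake, named after its values were seen, fell by 1.44. ZRT1, the high-affinity zinc transporter, rose from a median of 930 to 2059 RPM (1.13 ± 0.06, edgeR adjusted p = 1.09e-29). MMP1, a transporter of S-methylmethionine, rose by 1.19 ± 0.13 with an RM change of 0.02. HXT2, a hexose transporter, rose by 1.03 ± 0.12 with an RM change of 0.12. TAT1, an amino acid permease overlapped by an annotated non-coding gene, fell by 1.29 on the log2 scale with an RM change of 0.19. Of 11 purine synthesis genes 6 fell and 1 rose, or 4 and 1 with the A-share trend removed. ADE17 of this list fell from a median of 611 to 229 BY RPM. URA1, of pyrimidine synthesis, rose from 4377 to 9015 RPM (1.04 ± 0.04, edgeR adjusted p = 6.92e-38).

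Stress genes of the Msn2 and Msn4 activators were lower. Of 9 tested 8 fell and 0 rose (median −1.18), beside 23.4% and 30.3% of all tested genes. However, 15 of the 24 members of the list were not tested. HSP26, a small heat shock protein, ran from 2.89 to 18.2 BY RPM in the hybrid (median 8.28) and from 121 to 177 in co-culture (median 150), a change of −4.29 ± 0.31 (edgeR adjusted p = 1.38e-21). With 9 BY reads in the hybrid and 172 in co-culture, it passed the read minimum through co-culture alone, and 3 of the 9 tested genes had fewer than 60 BY reads in the hybrid, the share of the minimum that falls to 1 group. HSP12, a membrane-protecting stress protein named after its values were seen, changed by −3.49 from BY and −2.95 from RM. GSY2, a glycogen synthase named likewise, fell from a median of 305 to 73.8 BY RPM, while its RM reads had medians of 79.6 and 71.7, a difference of −1.99 ± 0.26 (edgeR adjusted p = 1.36e-12). The motif AGGGG, bound by these activators, stood before 21.5% of the called falls, 13.0% of the called rises and 17.5% of all tested genes.

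Secretory and surface genes also leaned down. In protein translocation and N-glycosylation 8 of 13 tested genes fell and 0 rose (median −0.50), led by PDI1, the disulfide isomerase, from a median of 2577 to 1332 BY RPM (−0.91 ± 0.06, edgeR adjusted p = 2.48e-25). In the vacuolar proton ATPase 5 of 9 fell and 0 rose (median −0.49), led by VMA5 at −0.86 ± 0.12. Of 21 cell wall genes 11 fell and 3 rose (median −0.23), but with the A-share trend removed 6 fell, 10 rose and the median was 0.07. Their median A share was 26.6%. CWP2, a mannoprotein, fell by 1.31 on the log2 scale. CWP1, a related mannoprotein, rose by 0.24 ± 0.09 from BY while its RM reads fell from a median of 3791 to 1317, a difference of 1.81 ± 0.09 (edgeR adjusted p = 8.75e-83). In the BY genome 7 of 24 proteasome genes rose and 2 fell (median 0.08), beside 30.3% higher and 23.4% lower among all tested genes. With a TMM scaling 3 proteasome genes rose and 3 fell. CLN3, a cyclin that starts the cell cycle, rose from a median of 187 to 347 BY RPM (0.78 ± 0.12, edgeR adjusted p = 2.89e-08).

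Of 12 genes, most of them regulators, known to differ in sequence or effect between BY and RM, 7 BY alleles fell and 3 rose. Among all tested genes 23.4% fell and 30.3% rose. With the A-share trend removed, 7 of the 12 fell and 1 rose. GPA1 and AMN1 are also counted above among the haploid-specific genes. Besides GPA1, AMN1, HAP1 and PHO84, the falls were RPI1, IRA2 and ZAP1. RPI1, a regulator of cell wall and Ras signalling, fell from a median of 310 to 161 BY RPM while its RM change was 0.77, a difference of −1.64 ± 0.17 (edgeR adjusted p = 5.94e-21). IRA2, a brake on Ras, fell from 796 to 528 (−0.55 ± 0.08), with an RM change of −0.47. ZAP1, the zinc-sensing activator, changed by −0.69 ± 0.20 with overlapping groups. CYS4, of cysteine synthesis, rose from a median of 2520 to 3956 RPM (0.64 ± 0.05, edgeR adjusted p = 1.66e-20). SIR3, a silencing protein, rose by 0.55 ± 0.13, but its change was 0.10 with the A-share trend removed (edgeR adjusted p = 0.559). OAF1, an activator of fatty acid genes, rose by 0.37 ± 0.14, a call that was lost under several settings, among them leaving out hybrid summed replicate 3 or 4 or co-culture summed replicate 6 (edgeR adjusted p = 0.0685, 0.124 and 0.071). MKT1 and STB5 were not called, with changes of −0.14 and 0.17. The part of these sequence differences in the changes was not tested.

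The BY change was set against the RM change in 1 fit for 2516 genes, and 559 differed (22.2%). The BY change was more positive in 228 (9.06%) and more negative in 331 (13.2%), but with a TMM scaling the split was 316 (12.6%) and 230 (9.14%). The median difference was −0.08, and 0.01 with TMM. Both alleles rose in 550 genes and both fell in 302. In 38 genes BY rose and RM fell, and in 30 BY fell and RM rose, and the difference was called in all of these. A BY rise with an RM change that was not called was found in 194 genes, 63 of which differed in the test, and a BY fall of that kind in 251, 120 of which differed. Of the BY falls tested for it, 38.8% differed from the RM change and of the BY rises 20.7%, or 31.1% and 26.2% with a TMM scaling. The largest positive difference was LYS2, 7.70 ± 0.32, whose BY change of 0.11 was not called (0.28 and called with the A-share trend removed) and whose RM reads all but vanished. With 2 RM reads in the hybrid, the ± value of 0.32 is smaller than counting error alone. For LYS2, a changed RM level and a difference between RM11-1alpha and RM11-1a at this gene cannot be told apart. QDR2, a multidrug transporter, went from a median of 469 to 147 BY RPM and from 43.5 to 188 RM RPM, a difference of −3.56 ± 0.21 (edgeR adjusted p = 7.15e-60).

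**Figure D4:**
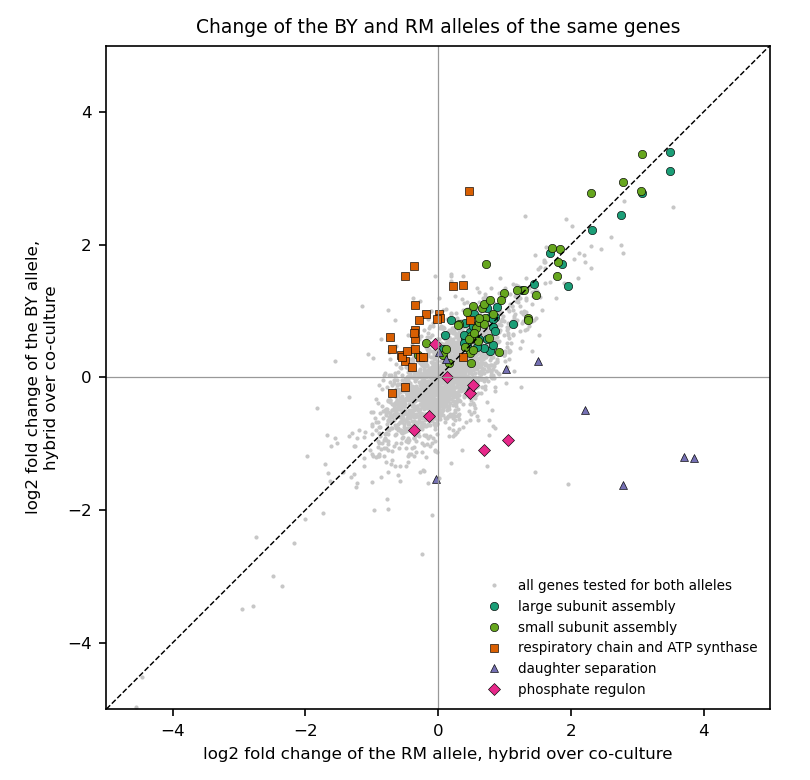
Log2 change of the BY allele against that of the RM allele, hybrid over co-culture, for 2511 genes, with 5 more outside the axes at ±5; the dashed line marks equal change. Ribosome assembly genes lie along the line, respiratory genes above it, and daughter separation and phosphate genes below it.

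The median BY change ran from −0.05 on chromosome I (38 genes tested) to 0.17 on chromosome XVI (147 genes). Among 460 neighbouring pairs with both genes called, 57.6% moved in the same direction, compared with 50.8% for any pair of called genes, and 61.3% of convergent pairs did. In 16 neighbouring pairs both BY alleles changed more than 2-fold in the same direction. Among these were LEU1 with MPO1, BAT2 with HMS2, HMG1 with FPR3, SAS10 with RPC53, QDR2 with QDR1, and AMN1 with ICS2, which fell by 3.05. Without a stated strand, reads where neighbouring transcripts overlap cannot be told apart.

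The BY change moved with base composition. Across 2607 genes the Spearman correlation with the A share of the coding sequence was 0.434, with GC share −0.082 and with coding length 0.029. Genes measured in the same libraries are not independent replicates. The genes were split by A share into 4 equal sets. In the set with the lowest A share (17.4% to 30.1%) 107 rose and 296 fell, with a median of −0.24. In the set with the highest (34.7% to 45.4%) 328 rose and 32 fell, with a median of 0.39. With the trend removed, 731 genes rose (27.9%) and 566 fell (21.6%). A total of 1042 genes were called with and without the trend, 1032 of them in the same direction, while 364 lost their call and 255 gained one. What links composition and change was not tested.

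**Figure D5:**
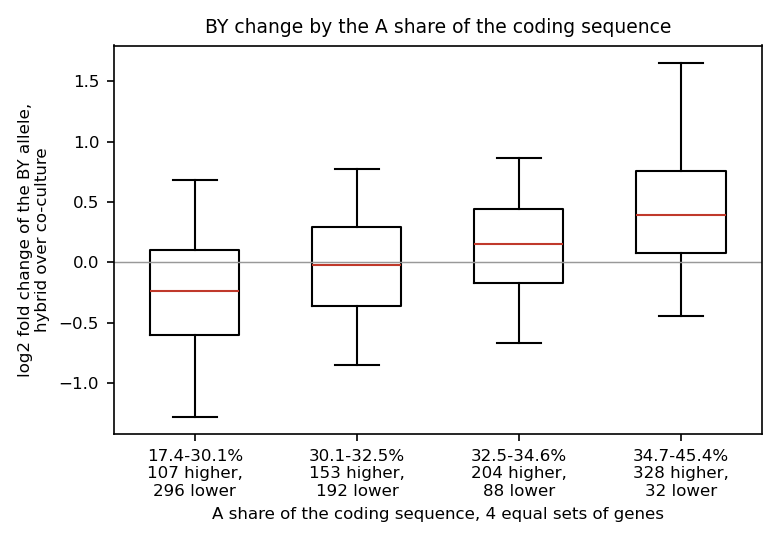
Log2 change of the BY allele in 4 equal sets of genes by the A share of their coding sequence; boxes span the quartiles, red lines are medians and whiskers reach the 5th and 95th percentiles. The median climbs from −0.24 to 0.39, and called rises go from 107 to 328 while called falls go from 296 to 32.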

How the data were processed

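Total RNA was enriched for poly(A) RNA with oligo-dT and copied into cDNA from oligo-dT primers, per the labels' protocols. The deposited files give raw read counts, which the authors assigned to the BY or the RM allele at single-base differences between orthologous genes, per the file headers. Aligner, genome build, filters and strand: not given in the sources used here. The groups come from the sample titles. Of 4442 gene pairs, 4325 were matched to RefSeq R64 by name for chromosome, composition and upstream sequence.

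Libraries of a group were summed where a chi-square test over genes with at least 20 reads in a pair of libraries, BY and RM reads as separate rows, gave a p of at least 0.05 for every pair. In both groups other pairs gave p below 0.001. Hybrid libraries 3 and 5, 4 and 6 to 8, and 10 to 12 were summed, and co-culture libraries 2 to 4, 5 and 6, 7 and 8, 9 and 12, and 10 and 11. BY counts of the summed replicates were tested with edgeR 4.0.16 (R 4.3.3), quasi-likelihood, with the BY total as library size, no further scaling, a mean of at least 5 BY reads per library over all 24 libraries, and Benjamini-Hochberg adjustment at 0.05. The BY change minus the RM change was tested in 1 edgeR fit over both allele columns with the summed replicate as a block. The procedure was tested on simulated data. Levels are given as lowest, median and highest over 6 summed replicates, or as medians. Unless stated, ± values are approximate standard errors: the size of a log2 change over the square root of its F value. Where a group holds few reads they are smaller than counting error alone, as for BAR1, GPA1, HSP26, NOP16 and the RM reads of LYS2.

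Named genes are the 8 largest called rises and falls with non-overlapping groups and a mean of at least 10 reads, members of 4 short lists (mating, haploid, marker and regulator genes), the largest called rise and fall of each list with at least 4 tested members, and the 6 largest differences between BY and RM changes in each direction. Members and lists were chosen with earlier results of these data known, so lists get counts and medians and no test. Alternatives were TMM scaling, DESeq2 1.42.0, other read minimums, unsummed libraries, likeness judged on BY reads alone, removal of a loess trend on A share, a block on the library number, and leaving out each summed replicate. Totals of 83068 to 116815 BY reads per library limit the precision of genes with few reads, and intervals and limits for few reads cover counting error only.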

Additional observations from a re-analysis of the deposited data

Results flagged for a closer look

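In 203 sets of 6 summed replicates, 1 library or sum of libraries lay apart from the other 5 in 17 (8.37%), where chance alone gives about 1 in 20. That rate is for values of equal precision, while the summed replicates held 101146 to 434608 BY reads, so the 2 rates are not directly comparable. All 17 are levels, in BY RPM, of genes named by rule. Hybrid summed replicate 5, which is library 9 alone, was the highest for BUD22 (328 against 205 to 245), NOP16 (212 against 144 to 169), EFT2 (2026 against 1643 to 1785), HIS6 (145 against 66.4 to 84.4) and SPE2 (193 against 54.5 to 98.2). Co-culture summed replicate 5 was the highest for RRP36 (46.3 against 16.1 to 26.0) and the lowest for SPE2 (36.0 against 57.3 to 69.7). Co-culture summed replicate 1 was the lowest for HAP1 (435 against 493 to 521), ASC1 (10895 against 12386 to 13276) and MRPS12 (39.5 against 74.1 to 88.6). Hybrid summed replicate 2 was the lowest for GPA1 (0 against 9.2 to 11.6) and CAN1 (182 against 258 to 295) and the highest for ISM1 (154 against 96.6 to 117). Hybrid summed replicate 1 was the highest for CDC60 (343 against 264 to 286) and the lowest for SCW11 (176 against 254 to 295). Hybrid summed replicate 3 held the single BY read of FUS3 (5.27 against 0), and summed replicate 6 was the highest for ZRT1 (2204 against 2011 to 2067).

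For 17 of the 24 genes named by rule for this difference, the BY change differed from the RM change in the test of the difference itself (edgeR, adjusted over 2516 genes). Among the genes named for their BY change alone, 23 more differed, 13 with the BY change more positive and 10 with it more negative. That made 40 of the 99 named genes tested for a difference, many chosen for large changes, against 22.2% of all 2516 genes. In the 17 genes, the BY change was more positive by 7.70 for LYS2, 2.35 for CYC1, 2.21 for OLE1, 2.03 for RIP1, 2.02 for CYT1 and 1.81 for CWP1. It was more negative for DSE1 (−5.06), DSE2 (−4.91), CTS1 (−4.42), QDR2 (−3.56), BAT2 (−2.88), SCW11 (−2.70), PHO84 (−1.98), RPI1 (−1.64), AMN1 (−1.07), HAP1 (−0.77) and CYS4 (−0.17). The difference of CYS4 was not called with a TMM scaling (−0.08, edgeR adjusted p = 0.258).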

How the results depend on the processing

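Counts of called BY alleles stayed within 1.5 times of the main count under every alternative run: 1154 with DESeq2 (561 higher, 593 lower) to 1580 with no read minimum, with 680 higher and 714 lower under TMM. Leaving out each summed replicate gave 1281 to 1415 calls, 719 to 801 higher and 562 to 615 lower. For the BY change minus the RM change it gave 458 to 564 calls, 203 to 233 more positive and 255 to 331 more negative. Library numbers did not pair the samples: same-numbered libraries correlated at −0.039 to 0.068, 0 of 12 above 0.1, and 1 hybrid library was closest to its own number. With the replicate block 827 genes were higher and 632 lower, and with the replicate block and the A-share trend removed 735 and 586. Among the values of the named genes, 5 lost their call under TMM, 5 with DESeq2 and 12 without the A-share trend, NCP1 and RPN5 of these with the sign turned. Signs turned for 6 values, with the cause not tested. With the A-share trend removed, and then also with the replicate block, the BY change was 0.23 and 0.21 for ASC1, 0.08 and 0.06 for NCP1, and −0.04 and −0.05 for RPN5. Under TMM the BY change minus the RM change was 0.00 (main value below 0) for IRA2 and 0.05 for GPA1. Leaving out a summed replicate turned the sign of uncalled differences of GPA1 (main value −0.04, range −0.29 to 0.26) and STB5 (main value 0.05, range −0.11 to 0.20). Values of the gene lists depended most on the A share. With that trend removed 36 moved and 58 stayed the same, while 13 moved under TMM and 11 with DESeq2. Genes with few reads are limited by depth: 1824 gene pairs were below the read minimum.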

Other observations

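Several groups of genes held both rises and falls from the BY genome, as did all tested genes, of which 30.3% rose and 23.4% fell. Counts near these shares do not set a group apart. Of 16 tested tRNA synthetase genes, which charge tRNAs with amino acids, 5 BY alleles rose and 2 fell (median 0.15), while 11 RM alleles rose and 0 fell (median 0.28). With a TMM scaling 4 BY alleles rose and 4 fell, and with the A-share trend removed 9 rose and 1 fell. Of 6 arginine synthesis genes 2 rose and 3 fell. ARG4, argininosuccinate lyase, went from a median of 122 to 53.2 BY RPM (−1.34 ± 0.21, edgeR adjusted p = 8.68e-08), and CPA1, a carbamoyl phosphate synthetase subunit, from 362 to 468 RPM (0.45 ± 0.09, edgeR adjusted p = 4.1e-05). In neither gene did the groups overlap, which was so for 25.6% of all tested genes. The letters TGACTC, which the amino acid regulator Gcn4 is known to bind, stood within 250 bases before the start codon of 4 of these 6 genes, and of 7.1% of all tested genes.

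Of 10 tested genes of Ras and protein kinase A signalling, the growth-linked glucose response, 1 rose and 5 fell. The rise was RAS1, a Ras GTPase, from a median of 1883 to 2883 BY RPM (0.59 ± 0.05, edgeR adjusted p = 6.84e-17). Of 9 genes of oxidative stress defence 2 rose and 4 fell, or 2 and 2 with the A-share trend removed. TRX2, a thioredoxin, went from a median of 2350 to 1142 RPM (−0.99 ± 0.06, edgeR adjusted p = 3.11e-27). Of 11 chaperone genes 4 rose and 2 fell, or 2 and 3 with a TMM scaling. SIS1, an Hsp40 chaperone, fell by 0.53 on the log2 scale with an RM change of 0.25 that was not called, a difference of −0.77 ± 0.21 (edgeR adjusted p = 0.00267). The single genes of these paragraphs were named by rule, as the largest called rise or fall of their lists. The lists themselves were chosen with earlier results of these data known.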
